A study of Mus musculus with 239 samples.

Results

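Cells sorted through the basal gate of the mouse mammary gland were divided by their level of Cdh5, which encodes VE-cadherin. Of the basal-gate cells, 12 had Cdh5 at 1 FPKM or more and are called Cdh5-positive, and the other 124 had less and are called Cdh5-negative. The rest of the series is 103 luminal-gate cells. FPKM is a fragment number scaled by transcript length and by the mapped fragments of the cell. The members were thus chosen by a measured value, so every difference between both groups below is a description without a test, and Cdh5 itself supports nothing. Cdh5 was 2.50 FPKM in virgin cell 3 and 11.9 in virgin cell 25, the lowest values inside the threshold, and 198 in pregnant cell 73, the highest. Just outside it, pregnant cell 80 had 0.118.

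VE-cadherin is the adhesive protein of the junctions between endothelial cells, the cells that line blood and lymph vessels. Endothelial cells of arteries, capillaries and veins share a core of receptors and junction proteins and differ in others: capillaries take up lipid and exchange solutes, arteries carry Notch ligands and gap junctions, and venules carry the adhesion molecules that stop leukocytes. Basal mammary cells are keratin-bearing, contractile myoepithelial cells that include candidate stem cells.

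The cells came from FVB females aged 3 to 4 months, virgin or pregnant (day 12 per the status label, 12.5 per the treatment protocol), and were profiled singly by RNA-seq on microfluidic chips. Haematopoietic and endothelial cells had been depleted with an epithelial enrichment kit, and viable cells with intermediate CD24 and high CD29 were sorted as basal; the stain also held an antibody to CDH5, but no gate on it is described. Virgin cells were 7 of the Cdh5-positive and 27 of the Cdh5-negative ones, and pregnant cells 5 and 97; the deposited table is marked WT, for wild type, and no engineered allele is named. The labels tie no cell to a mouse or chip, so each group counts as 1 sample, no p-value is given, and SDs are over cells. Depth, read from the steps between low FPKM values, was 2.14 to 21.3 M fragments (mega) in Cdh5-positive cells (median 9.07) and 1.15 to 39.9 M in Cdh5-negative cells (median 8.83). Cdh5-positive cells had 828 to 2600 genes at 1 FPKM or more (median 1954.5), and Cdh5-negative cells had 1150 to 4611 (median 2604).

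Cdh5-positive cells made up 7 of 34 virgin basal cells (20.6%, exact Clopper-Pearson 95% interval 8.70 to 37.9%) and 5 of the pregnant basal cells (4.90%, 1.61 to 11.1%), where 97 were Cdh5-negative. In the luminal gate, 1 of 103 cells reached 1 FPKM. The intervals cover the counting of cells only, and the difference between virgin and pregnant was not tested.

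The label was checked against 20 pan-endothelial genes, and it held for 9 of the 12 Cdh5-positive cells. These 9 cells had 9 to 16 of the 20 genes at 1 FPKM or more. The other 3 stand apart: pregnant cell 15 had 2, virgin cell 23 had 2 and virgin cell 3 had 1, within the range of 0 to 3 that 122 of 124 Cdh5-negative cells showed. Virgin cell 23 had the fewest genes of all basal-gate cells, 828, so its low count may include missed RNA, which was not tested. It had Cdh5 at 47.5, Fabp4 at 3377 and Rbp7 at 1609 FPKM, beside the basal keratin gene Krt5 at 292. Among the Cdh5-negative cells, 40 had 0 of the genes, pregnant cell 72 had 4, and virgin cell 16 had 13 with Cdh5 at 0. Differences are therefore also given for the 9 cells alone, a choice made after their values were seen.

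Promoters of 3 pan-endothelial genes are shown first, because ETS factors are known to act on endothelial promoters through a GGAA core. Members of this family differed in both directions below, with Fli1 higher and Ets2 lower, and no link between them and these promoters was tested. They are the RefSeq windows (build GRCm38.p6, 250 bases before to 50 after the start) of the 3 genes with the largest difference among those with a single window: Emcn at chr3:137340828-137341127 (plus strand), Adgrl4 at chr3:151437632-151437931 (plus) and Flt1 at chr5:147725962-147726261 (minus). Capitals mark AGGAAG or its reverse complement CTTCCT.
Emcn: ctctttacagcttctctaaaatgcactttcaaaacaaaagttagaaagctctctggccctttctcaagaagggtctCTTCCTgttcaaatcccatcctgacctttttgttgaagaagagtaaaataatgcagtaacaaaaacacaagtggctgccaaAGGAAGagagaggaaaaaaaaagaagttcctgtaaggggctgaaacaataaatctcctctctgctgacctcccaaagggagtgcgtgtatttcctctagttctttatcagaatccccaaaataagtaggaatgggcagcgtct
Adgrl4: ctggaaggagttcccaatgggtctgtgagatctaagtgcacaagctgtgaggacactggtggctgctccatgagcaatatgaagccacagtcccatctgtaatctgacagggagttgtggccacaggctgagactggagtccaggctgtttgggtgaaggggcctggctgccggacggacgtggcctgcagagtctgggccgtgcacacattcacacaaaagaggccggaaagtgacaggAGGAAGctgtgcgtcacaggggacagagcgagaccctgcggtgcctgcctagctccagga
Flt1: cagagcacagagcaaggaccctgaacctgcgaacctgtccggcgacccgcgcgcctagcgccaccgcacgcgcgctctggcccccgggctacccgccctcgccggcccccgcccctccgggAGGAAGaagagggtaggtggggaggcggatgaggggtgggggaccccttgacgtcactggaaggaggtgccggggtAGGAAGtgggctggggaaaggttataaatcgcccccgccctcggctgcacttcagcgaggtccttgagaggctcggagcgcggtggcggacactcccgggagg
AGGAAG on either strand was in 9 of the 15 windows found for 12 of the 20 genes, against 35.4% of all 32851 windows. The longer CCGGAAG, which shares the letters GGAAG with it but cannot match at the same place, was in 0 of 15 against 8.86%. A match is a description of letters, not a binding site.

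Across all genes, Cdh5-positive cells differed from Cdh5-negative cells mostly by lower values. Differences are of the mean log2(FPKM + 1), positive minus negative, and a gene is called at 1 or more. Of the 4364 genes that 25% or more of the cells of the higher group had at 1 FPKM, 390 (8.94%) were higher and 1292 (29.6%) lower, with a median difference of -0.48. Against only those Cdh5-negative cells whose gene number lay within the range of the Cdh5-positive cells (62 cells), the median difference was -0.01. Over the 13129 genes that reached 1 FPKM in any basal-gate cell, which are the measured genes used for the list counts, 3.24% were higher and 10.2% lower, with a median of -0.11. The members of every list below were read against these shares.

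Of the 20 pan-endothelial genes 17 were higher, against 3.24% of all measured genes, and 0 lower, with a median difference of 3.06; for the 9 cells alone, which these genes chose, 19 were higher, where 5.19% of all measured genes were higher and 11.4% lower. The list's score, its mean log2(FPKM + 1) in a cell, was 3.58 ± 1.87 (SD over 12 cells) against 0.29 ± 0.36 (SD over 124 cells). These genes mark the same cell type as Cdh5, the gene behind the split, so their difference is a description of the split itself.

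Fabp4, a fatty acid chaperone abundant in capillary endothelium and adipocytes (chr3:10204088-10208576, GRCm38), ranged from 25.7 to 27525 FPKM with a median of 8282 in the 12 Cdh5-positive cells, and from 0 to 6812 with a median of 0 in the 124 Cdh5-negative cells. All 12 Cdh5-positive cells had it and the difference was 10.55 (SD 3.06 and 2.53), but 28 Cdh5-negative cells had it too, so the groups overlap. Pecam1, the junction protein CD31, ranged from 0 to 649.9 FPKM with a median of 43.6 in the 12 Cdh5-positive cells, and from 0 to 65.9 with a median of 0 in the 124 Cdh5-negative cells. It reached 1 FPKM in 8 Cdh5-positive cells, all among the 9, and in 3 negative cells (difference 4.58). Emcn, the sialomucin endomucin, ranged from 0 to 4220.3 FPKM with a median of 64.5 in the 12 Cdh5-positive cells, and from 0 to 115 with a median of 0 in the 124 Cdh5-negative cells. It was present in 8 positive cells and 1 negative cell (difference 5.22), and was at 0 in virgin cells 21 and 24 of the 9. Esam, an endothelial adhesion molecule, was in 8 Cdh5-positive and 0 Cdh5-negative cells (difference 4.94).

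**Figure D1:**
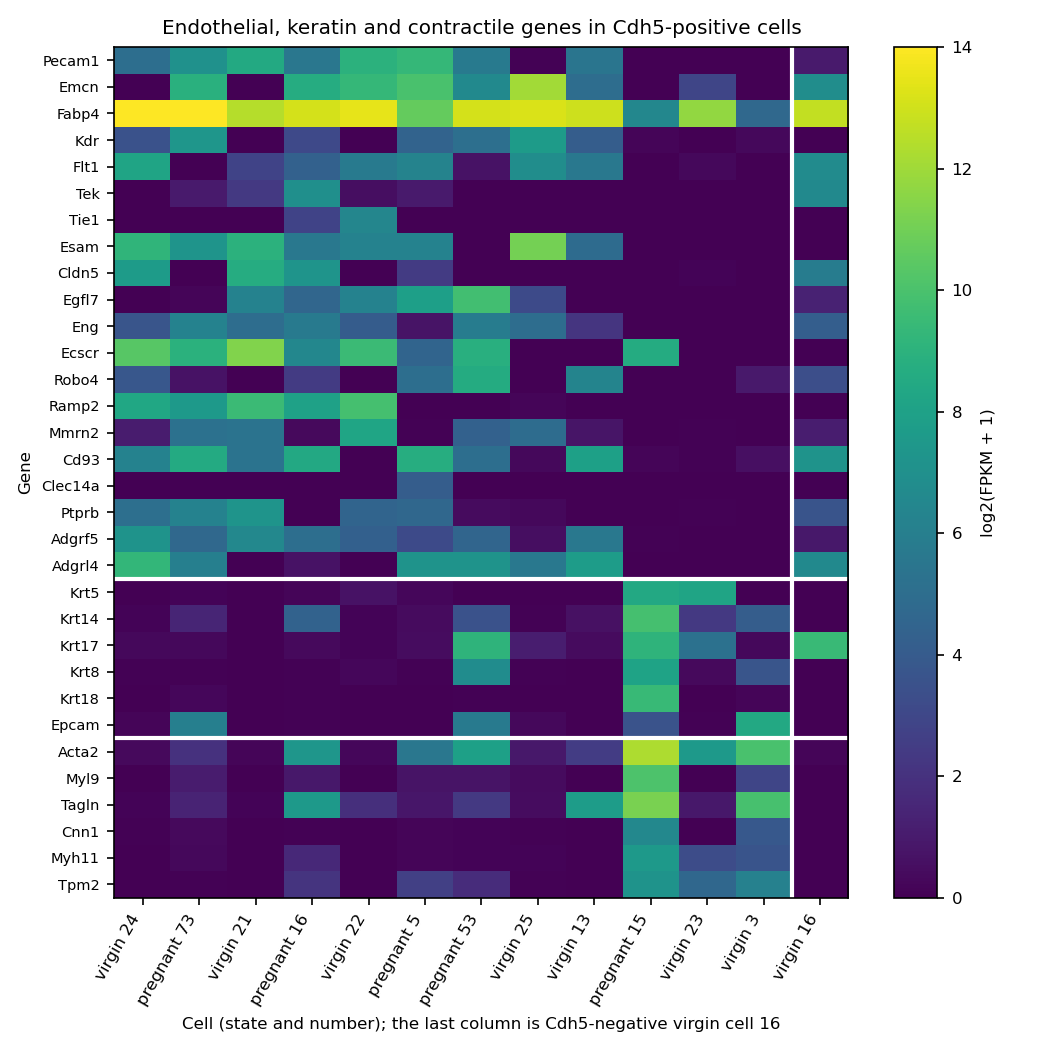
Heat map of log2(FPKM + 1) for 20 pan-endothelial genes (top block), keratins and Epcam (middle) and contractile genes (bottom) in the 12 Cdh5-positive cells, ordered by pan-endothelial score, and in Cdh5-negative virgin cell 16. Pregnant cell 15, virgin cell 23 and virgin cell 3 lack most of the top block, and virgin cell 16 holds 13 of its 20 genes.

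The epithelial side was lower. Of 12 basal identity genes 10 were lower and 0 higher, with score 1.21 ± 1.26 (SD over 12 cells) against 4.09 ± 1.00 (SD over 124 cells). Krt14, a basal keratin, ranged from 0 to 947 FPKM with a median of 1.15 in the 12 Cdh5-positive cells, and from 0 to 4969 with a median of 711 in the 124 Cdh5-negative cells. Pregnant cell 15 had 947 FPKM, while 6 of the 12 were under 1. Trp63, the transcription factor that maintains basal identity, reached 1 FPKM in 0 of 12 Cdh5-positive and 61 of 124 Cdh5-negative cells; a count of 0 in 12 allows a share of up to 25%, a limit on cells in which the gene is detected, not on cells that express it. All 11 measured contractile genes were lower, with score 1.84 ± 1.95 (SD over 12 cells) against 6.95 ± 1.59 (SD over 124 cells). Acta2, smooth muscle actin, ranged from 0.137 to 5027 FPKM with a median of 25.2 in the 12 Cdh5-positive cells, and from 0.105 to 15528 with a median of 4122 in the 124 Cdh5-negative cells. Its Cdh5-positive values were highest in pregnant cell 15 at 5027 and virgin cell 3 at 1009.6, and 244 in pregnant cell 53 was the highest of the 9. The other large deficits were of Myl9 (-8.23), Cnn1 (-7.31), Tagln (-7.18) and Myh11 (-6.29), all contractile proteins. Outside the lists, Sdc4, a cell surface heparan sulphate proteoglycan (-6.95), Cd63, a tetraspanin of late endosomes (-6.32), Postn, the matrix protein periostin (-6.21), Lcn2, a siderophore-binding lipocalin (-6.15), Nrg1, the ERBB ligand neuregulin (-5.94) and Sfn, an epithelial 14-3-3 protein (-5.87), were among the 15 largest deficits. For the 9 cells alone the score differences were -3.37 for basal identity and -5.96 for the contractile list. For all 12 cells they were -2.88 and -5.11 with both states pooled. Within each state they were smaller, -2.58 and -3.65 among virgin cells and -2.45 and -4.84 among pregnant cells.

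Of 14 measured genes of general and luminal epithelium 4 were lower, 0 higher and 10 neither, with a median difference of -0.50. The 4 were the simple keratins Krt8 (-4.72) and Krt18 (-1.52), the adhesion molecule Epcam (-2.34) and the epithelial cadherin Cdh1 (-2.71, in 1 Cdh5-positive and 82 Cdh5-negative cells). Without pregnant cell 15, Krt18 differed by -2.30. Among virgin cells Krt8, Krt18 and Epcam differed by -4.28, -3.02 and -3.48, and among pregnant cells by -3.72, -0.19 and -1.19. Of the sort antigens, Cd24a was lower in RNA and Itgb1 was under the call. Cd24a, which encodes CD24, reached 1 FPKM in 4 of 12 Cdh5-positive and 97 of 124 Cdh5-negative cells (difference -2.95). Itgb1, which encodes CD29, did so in 10 and 114 (-0.77), with differences of -0.61 among virgin and 0.32 among pregnant cells.

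**Figure D2:**
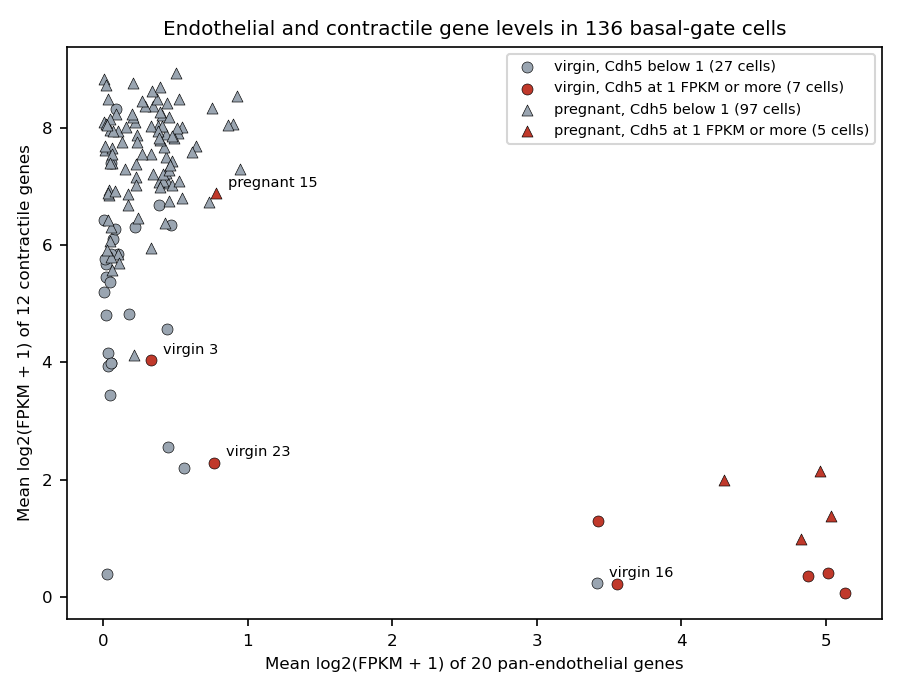
Each point is 1 basal-gate cell (circles virgin, triangles pregnant, red Cdh5-positive, grey Cdh5-negative), with the mean log2(FPKM + 1) of 20 pan-endothelial genes on the x axis and of 12 contractile genes on the y axis. The 9 red points at right have pan-endothelial scores of 3.42 to 5.13, the other 3 red points lie at 0.329 to 0.779 with the grey points, and grey virgin cell 16 lies with the 9.

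Keratin and endothelial genes were read together in each cell. With a keratin gene (Krt5, Krt14 or Krt17) at 10 FPKM or more and at least 4 pan-endothelial genes as the marks, 125 cells had the keratin mark alone, 7 the endothelial mark alone, 4 both and 0 neither, so 4 of the 11 cells with the endothelial mark also had the keratin mark. The 4 were pregnant cells 16, 53 and 72 and virgin cell 16. Pregnant cell 53 had Krt17 at 539.7 FPKM and Krt8 at 110.3 beside 12 pan-endothelial genes, while pregnant cell 16 had Krt14 at 20.5. Capture sites were inspected for doublets by the submitters, no doublet caller was run here, and the part of a second cell in these values was not tested. Of the markers of other cell types, Ptprc, the pan-leukocyte marker CD45, and the lymphatic regulator Prox1 reached 1 FPKM in 0 basal-gate cells of either group. The pericyte list had 0 of 6 measured genes higher and 0 lower, with a score of 0.30 ± 0.36 (SD over 12 cells) against 0.28 ± 0.35 (SD over 124 cells). Pdgfrb was in 0 Cdh5-positive and 3 Cdh5-negative cells. Rgs5, a regulator of G protein signalling known in pericytes, was 695 FPKM in pregnant cell 73, 140.4 in pregnant cell 53 and 19.7 in virgin cell 13, and 31 Cdh5-negative cells had it. The fibroblast list had 0 of 10 higher and 1 lower, and the adipocyte list 0 of 4 measured genes higher, with Plin1 and Cidec in 0 Cdh5-positive cells. The adipocyte hormones Retn (381 FPKM) and Adipoq (44.5) were both in virgin cell 24 and reached 1 FPKM in no other basal-gate cell. Of 12 immune genes only Cd74 was measured, at 869 FPKM in pregnant cell 5, 42.1 in virgin cell 22 and 1 or more in 23 Cdh5-negative cells. The part of such cells in the results was not tested.

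The vessel type was described from 12 measured capillary, 12 arterial, 11 venous and 5 lymphatic genes. Of the capillary genes 11 were higher and 0 lower (score difference 3.17, 9 cells alone 4.24), of the arterial 5 and 0 (0.57), of the venous 4 and 2 (0.18), and of the lymphatic 1 and 2 (-0.79).

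Most of the 9 cells carried the lipid-handling capillary genes. Gpihbp1, the capillary protein that anchors lipoprotein lipase (chr15:75596628-75599481), was 975, 2296, 1424 and 2792 FPKM in pregnant cells 5, 16, 53 and 73. It was 439, 266 and 593 in virgin cells 13, 24 and 25, and at most 0.195 in the other 5 Cdh5-positive cells. It reached 1 FPKM in 2 Cdh5-negative cells, 1 of them virgin cell 16 (34.9), and the difference was 5.70. These 7 cells each had 7 to 11 of the 13 listed capillary genes. Cd36, a fatty acid translocase, was 9.04 FPKM in pregnant cell 5, between 426 and 4381 in the other 6, and 703 in virgin cell 21 (difference 6.09). Cd300lg, a capillary and venular mucin-like receptor, differed by 4.20, Ly6c1 by 5.53, and Rgcc, a cell cycle regulator high in capillaries, by 4.64.

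Virgin cell 21 held the most arterial genes. Gja4, the arterial gap junction protein connexin 37, was 1089 FPKM there and at most 0.0592 in the other 11 Cdh5-positive cells. The same cell had Stmn2 at 471, the elastic fibre gene Fbln5 at 347, the Notch ligand Dll4 at 123 and Edn1, the vasoconstrictor endothelin, at 808. It had 7 of the 14 listed arterial genes and 5 of the 13 capillary ones. Its Cd36 was 703, its Ly6c1 188 and its Rbp7, a retinol-binding protein, 2476, while Gpihbp1 and Emcn were at 0. Gja5, Hey1 and Bmx, also arterial, reached 1 FPKM in 0 of 12 Cdh5-positive cells. Efnb2, the arterial ligand ephrin B2, was less specific: 6 Cdh5-positive and 29 Cdh5-negative cells had it (difference 1.40).

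Virgin cell 22 held the most venular genes. Ackr1, the chemokine-binding receptor of venules (chr1:173331886-173333750), was 16908 FPKM there, 0.152 in virgin cell 21 and 0 in the other 10 Cdh5-positive cells. Selp, the leukocyte-rolling receptor P-selectin, was 1242, and Vwf, the platelet-binding von Willebrand factor, 159, each under 1 FPKM in the other 11. Lrg1 at 617 and the E-selectin gene Sele at 353 were also highest there. This cell had 7 of 11 venous genes, Gpihbp1 at 0, Rbp7 at 0 and Cd36 at 0.0405. The venous list members under 1 FPKM there were Nr2f2 at 0.243 and Ephb4, Aplnr and Bgn at 0. Vcam1, also of the venous list, was 6.13 in this cell but 583 in virgin cell 21. Each of these vessel patterns rests on 1 cell. Without virgin cell 22, Ackr1, Selp and Vwf were under 1 FPKM in all remaining Cdh5-positive cells, and without virgin cell 21, so was Gja4. Without virgin cell 21 the arterial score difference was 0.28, and the differences of Fbln5, Dll4 and Edn1 were 0.47, 0.49 and 0.74 in place of 1.13, 1.03 and 1.49. Without virgin cell 22 the venous score difference was -0.19, Ackr1 differed by 0.013 in place of 1.18, Lrg1 by 0.32 in place of 1.07, Sele by 0.34 in place of 1.02 and Fbln5 by 0.68. Edn1 was also under the call without virgin cell 13 (0.88), Lrg1 without virgin cell 13 (0.82) and Sele without pregnant cell 73 (0.77).

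The 5 pregnant cells had Gja4, Ackr1, Selp and Vwf under 1 FPKM. Nr2f2, the venous transcription factor COUP-TFII, was 62.5, 4.12 and 85.6 FPKM in pregnant cells 16, 53 and 73 and under 1 in the 7 virgin Cdh5-positive cells, but 13 Cdh5-negative cells had it too. These 3 cells also had Aplnr, the apelin receptor, at 19.9, 57.7 and 97.3, with 33.3 in virgin cell 13. The lymphatic markers Lyve1, Mmrn1 and Prox1 were under 1 FPKM in all 12, and Flt4, the VEGF-C receptor, was in 3 cells that lacked them (difference 1.08, but 0.65 without virgin cell 25, 0.82 without pregnant cell 53 and 0.87 without pregnant cell 5). Pdpn, podoplanin, a lymphatic marker that basal cells carry too, differed by -5.75. Plvap, the diaphragm protein of fenestrae and caveolae, was 182, 2.38 and 3.92 in pregnant cells 5, 53 and 73. It was 148, 57.7 and 105 in virgin cells 13, 21 and 22, and reached 1 FPKM in 0 of 124 Cdh5-negative cells, which allows detection in a share of up to 2.42%.

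**Figure D3:**
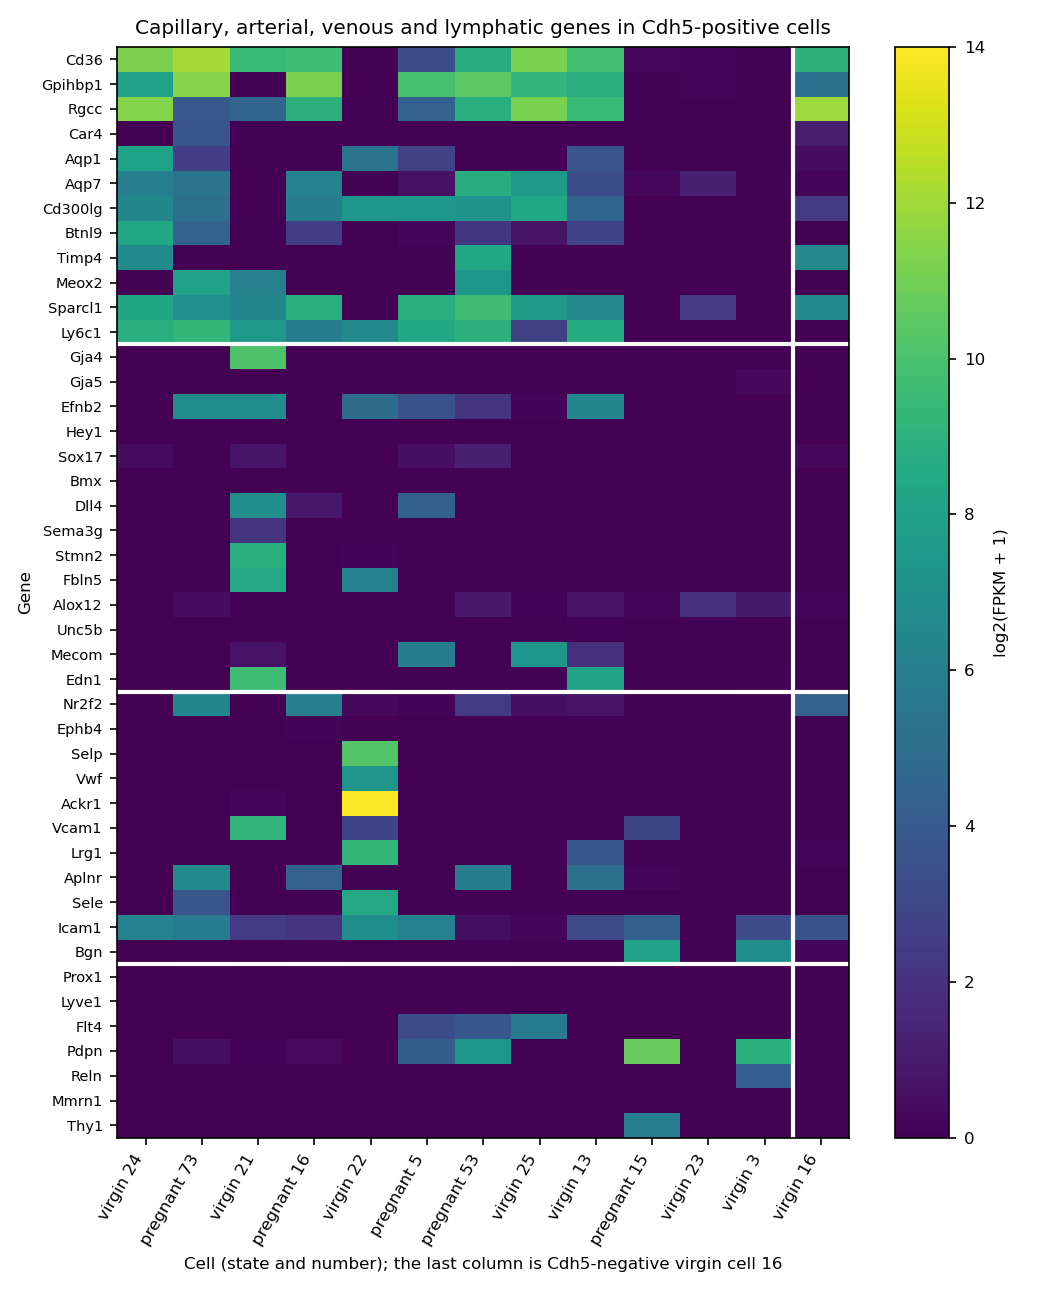
Heat map of log2(FPKM + 1) for capillary, arterial, venous and lymphatic genes (blocks from top to bottom) in the 12 Cdh5-positive cells, ordered by pan-endothelial score, and in Cdh5-negative virgin cell 16. Gja4, Stmn2 and Fbln5 are bright in virgin cell 21, Ackr1, Selp and Vwf in virgin cell 22, and Gpihbp1 in 7 other Cdh5-positive cells.

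Fatty acid handling includes Fabp4, the gene with the largest excess. Of 14 genes 7 were higher and 0 lower, with score 2.57 ± 1.43 (SD over 12 cells) against 0.55 ± 0.43 (SD over 124 cells). Apart from Fabp4, Cd36 and Gpihbp1 these were Aqp7, a glycerol channel (2.87), Lpl, lipoprotein lipase (1.81), Pparg, the nuclear receptor that drives several of these genes (1.26), and Lipe, hormone-sensitive lipase (1.21). Fabp4 is also a pan-endothelial gene of the list above, so its difference describes the split itself. Cd36, Gpihbp1 and Aqp7 were also counted in the capillary list. Pparg was 113, 77.2 and 2.72 FPKM in pregnant cells 16 and 73 and virgin cell 13 and reached 1 FPKM in no other basal-gate cell. Its difference was 0.75 without pregnant cell 16 and 0.80 without pregnant cell 73, and that of Lipe 0.60 without virgin cell 25 and 0.93 without virgin cell 22, all under the call. Lpl was in 8 Cdh5-positive and 28 Cdh5-negative cells and overlapped. Outside the list, Rbp7, a retinol-binding protein of the same intracellular lipid-binding family as Fabp4, ranged from 0 to 5666 FPKM with a median of 1388 in the 12 Cdh5-positive cells, and from 0 to 1117 with a median of 0 in the 124 Cdh5-negative cells. It was in 9 of 12 Cdh5-positive and 3 of 124 Cdh5-negative cells, the second largest excess after Fabp4 among genes that reached 1 FPKM in 50% or more of either group (8.05). Scarb1, the high-density lipoprotein receptor, chosen after its values were seen, differed by 3.23 (7 and 9 cells).

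Solute carriers and ABC transporters were mixed. Of 20 measured genes 3 were higher, 4 lower and 13 neither, where 3.24% of all measured genes were higher and 10.2% lower. The score difference was -0.21 with both states pooled, but 0.24 among virgin and -0.47 among pregnant cells. Higher were Slc9a3r2, a scaffold of the sodium-proton exchanger (2.13), the water channel Aqp1 (1.88, in 5 Cdh5-positive and 0 Cdh5-negative cells) and the drug efflux pump Abcg2 (1.32). Lower were the nucleoside carrier Slc29a1 (-2.07), the glucose carrier Slc2a1 (-1.85), the prostaglandin carrier Slco2a1 (-1.74) and the lysolipid carrier Mfsd2a (-1.49). Mfsd2a and Slc2a1 are known for the endothelium of the blood-brain barrier; Mfsd2a was in 0 of 12 Cdh5-positive and 41 Cdh5-negative cells. Of 8 caveolar and fenestral genes 4 were higher and 0 lower. They were Plvap, Cav1, the coat protein of caveolae (1.34), and the cavin genes Sdpr (2.64) and Prkcdbp (1.43); 113 Cdh5-negative cells had Cav1 as well. Without virgin cell 22, Abcg2 differed by 0.78 and Prkcdbp by 0.91; without virgin cell 13, Abcg2 differed by 0.87, and without pregnant cell 53, Prkcdbp by 0.98, all under the call.

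Of the VEGF pathway, receptors were higher and ligands were not. In the VEGF and TIE list 6 of 14 genes were higher and 2 lower. Kdr, VEGF receptor 2, was 20.7, 7.41, 33.8 and 160.4 FPKM in pregnant cells 5, 16, 53 and 73. It was 16.2, 10.6 and 206 in virgin cells 13, 24 and 25, the 7 cells that had Gpihbp1, and at most 0.215 in the other 5. It reached 1 FPKM in 0 Cdh5-negative cells (difference 2.98). Flt1, the decoy receptor VEGF receptor 1, differed by 3.34 (7 and 1 cells) and the co-receptor Nrp1 by 3.45 (8 and 2). Ptprb, an endothelial phosphatase that acts on TIE2, differed by 2.34, the co-receptor Nrp2 by 1.23 (0.86 without virgin cell 13) and Flt4 by 1.08 (under the call without virgin cell 25, pregnant cell 53 or pregnant cell 5). The ligand genes Pgf, Vegfa, Vegfb and Vegfc differed by -1.49 (-2.39 without pregnant cell 15), -1.36, -0.46 and -0.34; Vegfa was in 2 Cdh5-positive and 79 Cdh5-negative cells. Tek, the angiopoietin receptor TIE2, differed by 0.94. Kdr, Flt1, Ptprb and Tek are also pan-endothelial genes of the list above, so their differences describe the split itself. In the tip cell and angiogenic list 4 of 10 measured genes were higher and 1 lower, and its markers Esm1, Apln and Cxcr4 were in 0 Cdh5-positive cells.

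G protein-coupled receptors formed the signalling list with the largest median difference. Of 14 measured genes 8 were higher and 2 lower (median 1.41). S1pr1, a sphingosine phosphate receptor that steadies endothelial junctions, ranged from 0 to 410.2 FPKM with a median of 35.1 in the 12 Cdh5-positive cells, and from 0 to 21.98 with a median of 0 in the 124 Cdh5-negative cells. It was in 9 Cdh5-positive cells, with virgin cell 23 at 164 outside the 9, and in 4 Cdh5-negative cells (difference 4.05). Calcrl, the receptor for adrenomedullin, was in 6 and 0 cells (3.06), and its partner Ramp2 in 5 and 1 (3.59). Both were highest in virgin cell 22, at 651 and 933 FPKM. The endothelin B receptor Ednrb differed by 2.38, and the adhesion receptors Adgrl4 and Adgrf5 by 3.53 and 3.38. Ramp2, Adgrl4 and Adgrf5 are also pan-endothelial genes of the list above, so their differences describe the split itself.

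In the BMP and TGF-beta list 6 of 16 genes were higher and 3 lower. Eng, the co-receptor endoglin, differed by 3.01, and Acvrl1, the endothelial type I receptor ALK1, by 1.46. Eng is also a pan-endothelial gene of the list above, so its difference describes the split itself. Lower were the TGF-beta co-receptor Tgfbr3 (-3.06), the inhibitor Smad7 (-2.69) and Id2 (-1.65). The BMP target genes Id1 and Id3, inhibitors of helix-loop-helix factors, had their highest Cdh5-positive values in pregnant cells. Id3 was 385, 583, 403 and 442 FPKM in pregnant cells 5, 16, 53 and 73, and 0 in pregnant cell 15. Of the 7 virgin Cdh5-positive cells 4 had it as well, virgin cell 24 at 93.2, virgin cell 21 at 19.6, virgin cell 13 at 5.40 and virgin cell 23 at 1.95. Id1 was 8.95, 149, 1137 and 380 FPKM in pregnant cells 5, 16, 53 and 73, 143 in virgin cell 24 and at most 0.535 in the other Cdh5-positive cells. The difference of Id3 was 6.46 among pregnant and 0.65 among virgin cells, and that of Id1 5.85 and 0.36. The virgin comparison holds virgin cells 3 and 23, which stand apart, as Cdh5-positive. It also holds virgin cell 16 as Cdh5-negative, with Id1 at 62.7 and Id3 at 84.8. The contrast between both states was not tested. The Notch list had 3 of 10 measured genes higher (Hes1 1.88, Notch1 1.38, Dll4 1.03) and 2 lower, and the Wnt list 1 of 13 higher and 1 lower. Without virgin cell 21, Notch1 differed by 0.98 and Dll4 by 0.49, and without pregnant cell 5 Dll4 differed by 0.73.

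Of 22 measured endothelial transcription factors 12 were higher and 2 lower (median 1.27). Fli1, an ETS factor of blood and endothelium, ranged from 0 to 376 FPKM with a median of 28.1 in the 12 Cdh5-positive cells, and from 0 to 42.5 with a median of 0.0322 in the 124 Cdh5-negative cells. It was in 9 Cdh5-positive and 3 Cdh5-negative cells (difference 4.26), and pregnant cell 15 had 25.1. The ETS factor Erg differed by 0.99, the forkhead factor Foxo1 by 2.36, Klf4 by 1.86 and the hypoxia factor Epas1 by 1.79. Tal1 and Lmo2, partners in a blood and endothelial factor complex, were each in 4 Cdh5-positive and 0 Cdh5-negative cells (1.34 and 1.67; Tal1 0.97 without virgin cell 21). Lower were Nfib (-1.69) and Ets2 (-1.57). Of 12 measured endothelial junction genes 6 were higher, with the tight junction genes Cldn5 at 2.14 and Tjp1 at 1.41 (0.98 without virgin cell 13), and 1 lower, Gja1 (-1.52). Cldn5 is also a pan-endothelial gene, so its difference describes the split itself. The leukocyte adhesion list had 7 of 12 higher, with Cd34 at 2.73 and Icam2 at 2.60, and 1 lower (Icam1, -1.26, and -0.95 without virgin cell 23 or -0.97 without virgin cell 25). In haemostasis and vascular tone 5 of 13 were higher, led by Thbd, the anticoagulant thrombomodulin (4.00, 6 and 2 cells), and 2 were lower. Of 16 basement membrane genes 3 were higher, Sparcl1 (5.34) and the nidogens Nid1 (1.52) and Nid2 (1.05). Nid2 was under the call without pregnant cell 16 (0.53), virgin cell 22 (0.79) or pregnant cell 73 (0.97). The 7 lower ones included the laminin genes Lama3 (-2.50) and Lamb3 (-2.35).

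**Figure D4:**
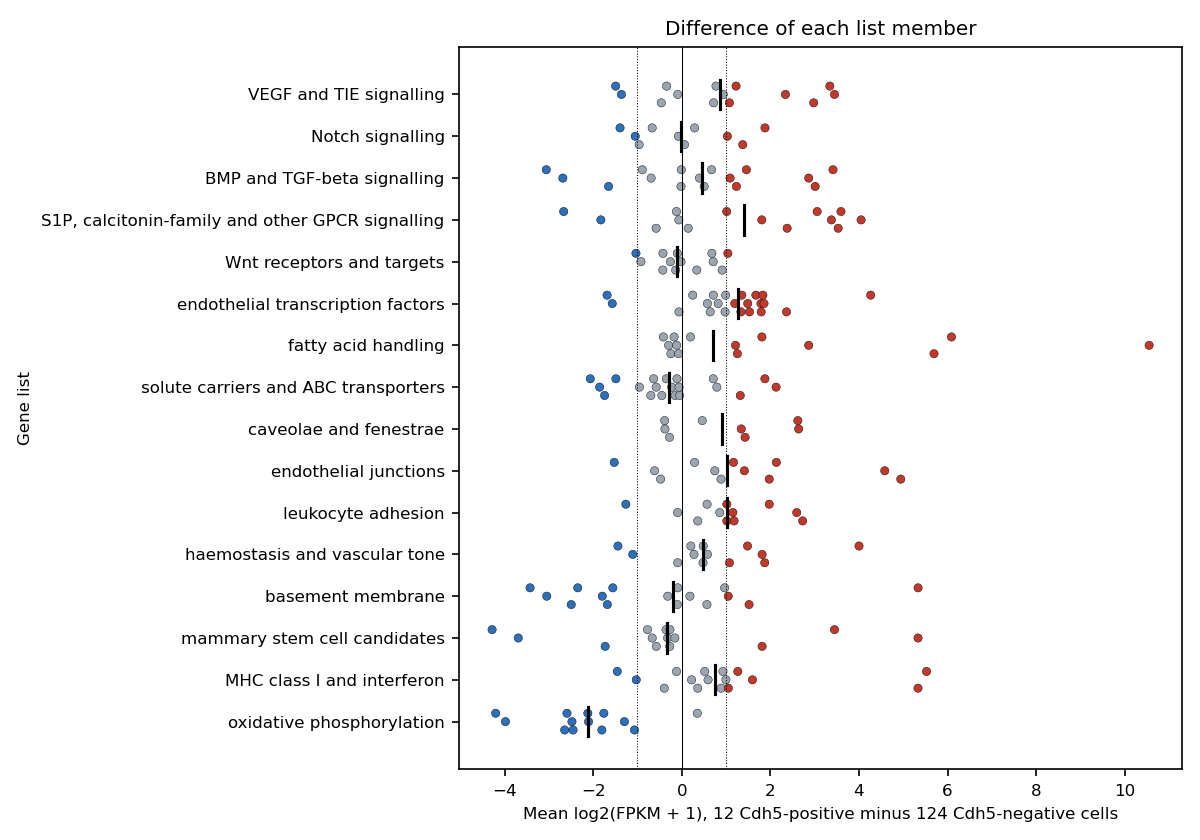
Each point is a measured gene of the list named on the y axis, placed by its difference of mean log2(FPKM + 1), 12 Cdh5-positive minus 124 Cdh5-negative cells (red at 1 or more, blue at -1 or less, black bar the list median). Fatty acid handling reaches 10.55 at Fabp4, and 12 of 13 oxidative phosphorylation genes lie at -1 or less.

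Of all 13129 measured genes, 30 were at 1 FPKM or more in at least 6 Cdh5-positive and at most 3 Cdh5-negative cells, 18 of them in the lists. This search used the same split of the cells, so the restriction of these genes to Cdh5-positive cells describes how they were found. The 7 found in 0 Cdh5-negative cells were Gimap6, Esam, Lmcd1, Calcrl, Kdr, Plvap and Tgtp2. Gimap6, a GTPase of the immunity-associated protein family, ranged from 0 to 829 FPKM with a median of 269 in the 12 Cdh5-positive cells, and from 0 to 0.725 with a median of 0 in the 124 Cdh5-negative cells. It was in all of the 9 cells, with 1.53 in virgin cell 21 as the lowest, and in none of the other 127 basal-gate cells, where it was at most 0.725. Of 7 measured family members, 4 were higher: Gimap6 (5.97), Gimap4 (2.72), Gimap5 (1.19) and Gimap9 (1.62), the last 3 chosen after their values were seen. Gimap9 was less uniform: it was in 4 Cdh5-positive cells, 1 of them pregnant cell 15 outside the 9, and in 18 Cdh5-negative cells, and it differed by 4.24 among pregnant and -0.13 among virgin cells. Gimap5 differed by 0.71 without pregnant cell 73 and by 0.89 without pregnant cell 53. Also chosen after their values were seen, and not among the 30, were Iigp1, a GTPase against intracellular pathogens, and Cxcl9, a T cell chemokine. Iigp1 differed by 4.17 (7 and 11 cells) and Cxcl9 by 2.75 (4 and 1 cells). In the MHC class I and interferon list 5 of 16 were higher, among them B2m, the light chain of class I (1.60), and 2 lower, Ifitm2 (-1.46) and Ifitm3 (-1.03). Without virgin cell 25 these were -0.74 and -0.23, and Ifitm3 was also short of the call without virgin cell 23 (-0.87) or virgin cell 13 (-0.99). Tgtp2, Ly6a, Ly6c1 and the Gimap genes have near-identical relatives, and the sources used here do not say how reads matching several genes were counted, so their values are uncertain.

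Without the 3 Cdh5-positive cells that stand apart, the counts of higher and lower genes were 8 and 2 of 14 in the VEGF and TIE list, 8 and 2 of 14 for G protein-coupled receptors, and 14 and 2 of 22 for endothelial transcription factors. They were 7 and 0 of 14 in fatty acid handling, 5 and 4 of 20 for solute carriers and ABC transporters, and 9 and 2 of 16 in the MHC class I and interferon list. Over all measured genes 5.19% were higher and 11.4% lower for these 9 cells. The differences of single genes were then 7.59 for Gpihbp1, 3.92 for Kdr, 4.62 for S1pr1, 5.22 for Fli1 and 7.97 for Gimap6. Kdr, Flt1, Ptprb, Ramp2, Adgrl4, Adgrf5 and Fabp4 are among the pan-endothelial genes that chose these 9 cells. Larger differences of those genes in the 9 cells therefore describe that choice.

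Genes proposed to mark mammary stem cells were mixed. Of 14 measured candidates, Ly6a (Sca-1, 5.33), Nrp1 (3.45) and Procr (1.81) were higher, Sox9 (-4.28), Itga6 (-3.69) and Sox10 (-1.73) lower, and 8 neither. All 3 higher ones are also known in endothelium. Procr, the endothelial protein C receptor, was 47.1, 459.5 and 452 FPKM in pregnant cell 73 and virgin cells 21 and 22, the last 2 being the arterial- and venular-gene cells, and 0 in the other 9. Without virgin cell 21 or 22 its difference was 1.19. It was in 3 Cdh5-negative cells. Lgr5, Bcl11b and Tspan8 reached 1 FPKM in 0 of 12 Cdh5-positive cells and in 10, 6 and 7 Cdh5-negative cells; 0 of 12 allows detection in up to 25%. Of 12 proliferation genes 2 were higher (Pcna 1.75, Tyms 1.03) and 0 lower. Tyms was under the call without virgin cell 21 (0.57), pregnant cell 73 (0.76), pregnant cell 16 (0.92) or virgin cell 23 (0.92). Mki67, a marker of cycling cells, was in 2 and 13 cells. Of 8 cell cycle inhibitors 2 were higher, among them Cdkn1a (1.12), and 1 lower, Gas1 (-2.78). Cdkn1a was under the call without any one of pregnant cells 15 and 53 and virgin cells 13, 21, 22 and 24, the lowest value being 0.66 without virgin cell 24. Of 12 immediate early and dissociation stress genes 4 were higher, led by the phosphatase Dusp1 (2.46), and 1 lower, Atf3 (-1.52); for the 9 cells alone 8 were higher and 1 lower.

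In oxidative phosphorylation 12 of 13 genes were lower and 0 higher, with score 3.49 ± 2.09 (SD over 12 cells) against 5.66 ± 1.58 (SD over 124 cells), and of 13 glycolysis genes 6 were lower, 0 higher and 7 neither. Against these stand 10.2% lower among all 13129 measured genes and 29.6% lower among the 4364 genes that passed the 25% filter. Of 9 housekeeping genes 3 were lower and 1 higher. Gene number per cell moves with these differences. Against the 62 Cdh5-negative cells within the gene number range of the Cdh5-positive cells, the score difference of oxidative phosphorylation was -1.28 in place of -2.17. That of glycolysis was -0.37 in place of -1.10. Gene number was not matched beyond this range. Within each state the oxidative phosphorylation difference was smaller than with both pooled, -1.26 among virgin and -1.61 among pregnant cells. Glycolysis differed by -0.04 among virgin and -1.32 among pregnant cells. Virgin cells were a larger share of the Cdh5-positive than of the Cdh5-negative cells, and the part of pregnancy state in the pooled values was not tested.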

How the data were processed

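Mammary cells from FVB mice were profiled singly by RNA-seq (SMARTer cDNA, Nextera XT libraries), per the labels' protocols. The authors deposited 1 table of FPKM values, 18850 genes by 239 cells; no header states the unit, which rests on the tools and values. Trimmomatic 0.35, TopHat2 2.0.13 and Cufflinks 2.2.1 with build mm10 (GRCm38) were used, per the submitters' processing notes; the sources used here do not give filters, annotation or the handling of reads matching several genes. All columns had a sample.

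The members and lists (38 lists, 421 of 424 genes in the table) were chosen with earlier results of these data known. Some genes are in more than 1 list (478 entries for the 424 genes), so the lists are not separate from each other. Genes named were the 20 with the largest excess and the 15 with the largest deficit among those that 50% or more of the higher group had at 1 FPKM, the 6 most different members of a list, list members in 0 Cdh5-positive cells and a set of markers; others named within a list or a count of the text were chosen after their values were seen.

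Differences are of mean log2(FPKM + 1), so folds of low genes are understated. Depth was computed from the FPKM steps: 99.99% of 244091 low values were whole multiples of a step within 0.05 step over 7791 genes. PCR copies cannot be told from molecules. The housekeeping gene Tbp was at 0 in 11 of 12 Cdh5-positive and 109 of 124 Cdh5-negative cells and Gapdh in 1 Cdh5-negative cell, so a gene listed at 0 may be missed RNA. Alternatives were pseudocounts of 0.1 and 10, rescaling, other filters and calls, other Cdh5 thresholds and cell subsets, each positive cell left out in turn, and 3 alternatives chosen after seeing the data. Coordinates are from GENCODE annotation of GRCm38. Software was numpy 2.4.6 and pandas 2.3.3.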

Additional observations from a re-analysis of the deposited data

Results flagged for a closer look

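Outside the basal gate, pregnant luminal cell 16 drew attention because it had 10 of the 20 pan-endothelial genes at 1 FPKM or more, the one luminal-gate cell of 103 with at least 4. Cdh5 was 6.53 FPKM there, Gpihbp1 893, Cd36 457, Rbp7 258 and Gimap6 256. The same cell had the luminal keratin genes Krt8 at 1187 and Krt18 at 796, and the part of a second cell in its values was not tested.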

How the results depend on the processing

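The pan-endothelial, capillary, basal and contractile score differences kept their direction under every alternative run. Counts of genes moved with the scale: 608 higher and 2050 lower at a pseudocount of 0.1, 147 and 386 at 10, 187 and 828 with the filter at 50% of the higher group, 115 and 362 at a call of 2, and 589 higher with FPKM rescaled to 1 equal sum per cell. With Cdh5 above 0 as the threshold, 175 genes were higher and 534 lower, the contractile score difference was -2.82, and the share of Cdh5-positive cells among pregnant basal cells was 13.7%. At 10 FPKM or more 0 luminal cells were positive. The number of genes higher was 915 among pregnant cells only, 698 without positive cells with basal keratin, and 763 among virgin cells without the 2 positive ones under 4 pan-endothelial genes. Against negative cells within the gene number range of the positive cells, 765 genes were lower. The basal identity difference was -4.17 and -1.60 at pseudocounts of 0.1 and 10. Of genes called, 23.2% were higher, against 42.7% with negative cells within that gene number range. The cause of these shifts was not tested, beyond fewer cells or genes by construction.

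Leaving out each Cdh5-positive cell in turn gave 348 to 473 genes higher and 1191 to 1429 lower. Single genes changed sign or came to 0 in subsets. Among virgin cells only, Jag1 was 0.93, Entpd1 1.72, Igfbp2 0.10, Atf3 1.59, Pgk1 0.59 and Gimap9 -0.13; without the cells under 4 pan-endothelial genes Icam1 was 0.14, Jag1 1.30, Entpd1 1.69, Atf3 2.66, Pgk1 0.085 and Gimap9 -0.24. Among pregnant cells only, Ackr1 and Lrg1 were 0, Edn1 -0.016, Fbln5 -0.11, Id2 0.027 and Cox7a2 0.37. With Cdh5 above 0, Tm4sf1 was -0.26 and Hk2 0.29. Atf3 was 0.076 against negative cells within the gene number range of the positive cells. Keeping only negative cells with basal genes kept all 124 cells. No paired analysis was possible because no test was made and cell numbers are only names. The 12 positive cells come from an unnamed number of mice, which limits precision.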
